A study of Arabidopsis thaliana with 20 samples.

Results

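In short inflorescence stems of Arabidopsis thaliana, the tissue 2-4 cm from the tip was set against the tissue at 0-2 cm of stems of the same length, on 4 of the 20 arrays of a series on stem development. These 4 arrays were chosen by their titles alone. Relative to the tip, genes of wall loosening and wall polysaccharides were among the higher transcripts, with XTH33 4.98-fold, EXPA8 3.72-fold and EXPA15 2.38-fold higher. Genes of ribosome assembly and of plastid and mitochondrial biogenesis were among the lower ones, with PDF1B 2.18-fold and PRH75 2.08-fold lower. The lists of these genes were written after the values were seen. ARR15, a cytokinin response regulator, was 1.78-fold lower. The difference from the tip was of modest size: among 25720 tested probes, 1706 were higher and 1772 lower at an adjusted p under 0.05, 13.5% in all. Of these, 311 (1.21% of those tested) were at least 2-fold higher and 253 (0.984%) at least 2-fold lower.

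The inflorescence stem grows from its tip. Cells divide in and just below the shoot apex, elongate further down as expansins and xyloglucan endotransglucosylases loosen their primary walls, and later stop growing, when fibres and xylem vessels lay down thick secondary walls rich in xylan, cellulose and lignin. Dividing cells are rich in ribosomes and make new plastids and mitochondria, whereas expanding cells gain most of their volume through the vacuole.

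All plants were of the accession Ler, with no transgene or mutation named, and were kept for 8 weeks in short days with 8 h of light before the move to long days with 16 h of light. The 2-4 cm section and the 0-2 cm reference both came from stems of about 5 cm, harvested on day 12 of long days. The 0-3 and 3-5 cm sections, used below for contrast, came from stems of about 10 cm harvested on day 14. Flowers, siliques, cauline leaves and side branches had been removed, so each section is a mixture of all stem tissues, and a larger share of a cell type and more RNA per cell cannot be told apart. The 2-4 cm RNA carried Cy5 on arrays 1 and 2 and Cy3 on arrays 3 and 4, with the reference in the other dye. Nothing in the labels ties the 4 arrays to separate plants, and the p-values therefore cover array-to-array spread, part of which may be technical. No tip sample was hybridised against the reference, so a test of the ratio against 0 leaves out the tip's own spread.

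The 4 arrays correlated above 0 with each other across probes, with r from 0.131 to 0.578. Array 2 stood furthest apart, with r of 0.184 and 0.131 to arrays 3 and 4, which carried the section in the other dye. Array 1 had r of 0.427 and 0.389 to these. Arrays of the same dye were closer, at 0.484 for arrays 1 and 2 and 0.578 for arrays 3 and 4. The array medians lay between -0.0178 and 0.0257 and the SDs between 0.493 and 0.574. Of the 3478 called probes, 3211 (92.3%) had the same sign on all 4 arrays, and 1286 were still called when each array in turn was left out. The number of calls fell to 1994 without array 1, 2142 without array 3 and 2067 without array 4. Among genes named below, PGY1, PPR596, BGLU33, HEME1, YUC11, BPEp and AT-HF were called with all 4 arrays only. The 2-4 cm arrays alone were scanned at photomultiplier settings of 62 (Cy3) and 59 (Cy5) and carry array numbers 2 to 5, and these features cannot be told apart from the section itself. Values are log2 ratios of section over reference, with the log base taken as 2, and errors are SE of the fitted mean over 4 arrays unless stated.

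Each gene is given by 1 probe, and where a locus had more, they did not always match. Of 229 loci with several probes, 53 had one or both called, and in 30 of these 53 the signs matched. In 5 loci both probes were called, and all 5 pairs went the same way. Any further probe of a gene named below is given beside it.

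Expansins loosen walls without cutting them, and xyloglucan endotransglucosylases (XTH) cut and rejoin xyloglucan chains. Of 16 measured members, 4 rose and 0 fell (median log2 ratio 0.30), against 6.63% of all tested probes called higher, 6.89% called lower and a median of 0.00469. Over the 7871 named loci, each taken at 1 probe as in the lists, 6.63% were higher and 6.53% lower. The highest was XTH33, with log2 ratios of 2.28, 1.92, 2.54 and 2.51 on arrays 1 to 4 (mean 2.31 ± 0.17, adjusted p = 2.18e-08 in limma). Its lowest array lay almost 2 log2 units above 0, whichever dye carried the section. EXPA8 gave 2.33, 2.03, 1.55 and 1.67 (mean 1.90 ± 0.23, adjusted p = 9.25e-06). The 2 arrays with the section in Cy5 were the higher ones, and all 4 lay above 1.5. EXPA15 had 1.61, 1.17, 1.23 and 1.00 (mean 1.25 ± 0.17, adjusted p = 3.88e-05). EXLA1, an expansin-like protein, had 1.397, 1.09, 1.00 and 1.03 (mean 1.13 ± 0.12, adjusted p = 3.24e-06). No array of these 4 genes reached down to 0, and each of the 4 genes was called without any one array. The other 12 members lay between -0.48 (EXPA4, where array 2 alone read -2.29) and 0.50 (EXLA2), and none passed the test.

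The trichome birefringence-like (TBL) proteins add acetyl groups to wall polysaccharides such as xylan. Among 17 measured members, 5 rose, 1 fell and 11 did not pass (median 0.08). TBL33, which acts on xylan, read 2.27, 2.02, 2.74 and 2.24 on the 4 arrays (mean 2.32 ± 0.26, adjusted p = 3.56e-06), a 4.99-fold difference with every array above 2. TBL37 followed at 1.72, 1.34, 1.16 and 1.00 (mean 1.31 ± 0.15, adjusted p = 5.41e-06). Next was TBL25, at 1.29, 1.58, 0.76 and 0.75 (mean 1.09 ± 0.18, adjusted p = 0.000368). For TBL37 and TBL25 the Cy5 arrays were the higher ones, yet no array approached 0. TBL28 (0.83 ± 0.18, adjusted p = 0.00408) and TBL15 (0.74, adjusted p = 0.00364) rose less. TBL39 went the other way, with -1.05, -0.95, -0.38 and -0.25 (mean -0.66 ± 0.17, adjusted p = 0.011), all below 0 but weaker with the section in Cy3. The list's median was 0.34 without array 3 and -0.01 without array 4.

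Cellulose, hemicellulose and endoglucanase genes numbered 16, of which 4 rose, 1 fell and 11 did not pass (median 0.13, and 0.0412 without array 1). GH9B7, an endoglucanase, read 1.04, 1.33, 0.80 and 0.48 (mean 0.91 ± 0.12, adjusted p = 4.05e-05). GH9B11 of the same family was uneven, at 0.27, 1.54, 1.78 and 0.68 (mean 1.07 ± 0.26, adjusted p = 0.00772). The glucan synthase of xyloglucan, CSLC04, had 0.52, 0.47, 1.12 and 0.67 (mean 0.70 ± 0.20, adjusted p = 0.0227), and CSLC6 had 0.35, 0.02, 0.56 and 1.03 (mean 0.49 ± 0.14, adjusted p = 0.0245). All 4 genes were above 0 on every array, CSLC6 only barely on array 2. CSLC04 and CSLC6 were each called without only 1 of the 4 arrays. GH9B6 fell, with a mean of -0.52 ± 0.16 (adjusted p = 0.0361). USP, the UDP-sugar pyrophosphorylase that makes nucleotide sugars for wall synthesis, rose by 0.96 ± 0.17 (adjusted p = 0.00061), the 1 of 8 genes of nucleotide sugar supply that passed.

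ATPMEPCRD, a pectin methylesterase that was picked after its values were seen, read 1.69, 1.29, 2.32 and 1.57 (mean 1.72 ± 0.22, adjusted p = 2.43e-05). PMEPCRF, the pectin gene found by the list search, read -0.09, 0.57, 0.55 and 0.20 and did not pass (mean 0.31 ± 0.18). The plot of wall genes called higher shows how their values spread over arrays and dyes.

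**Figure D1:**
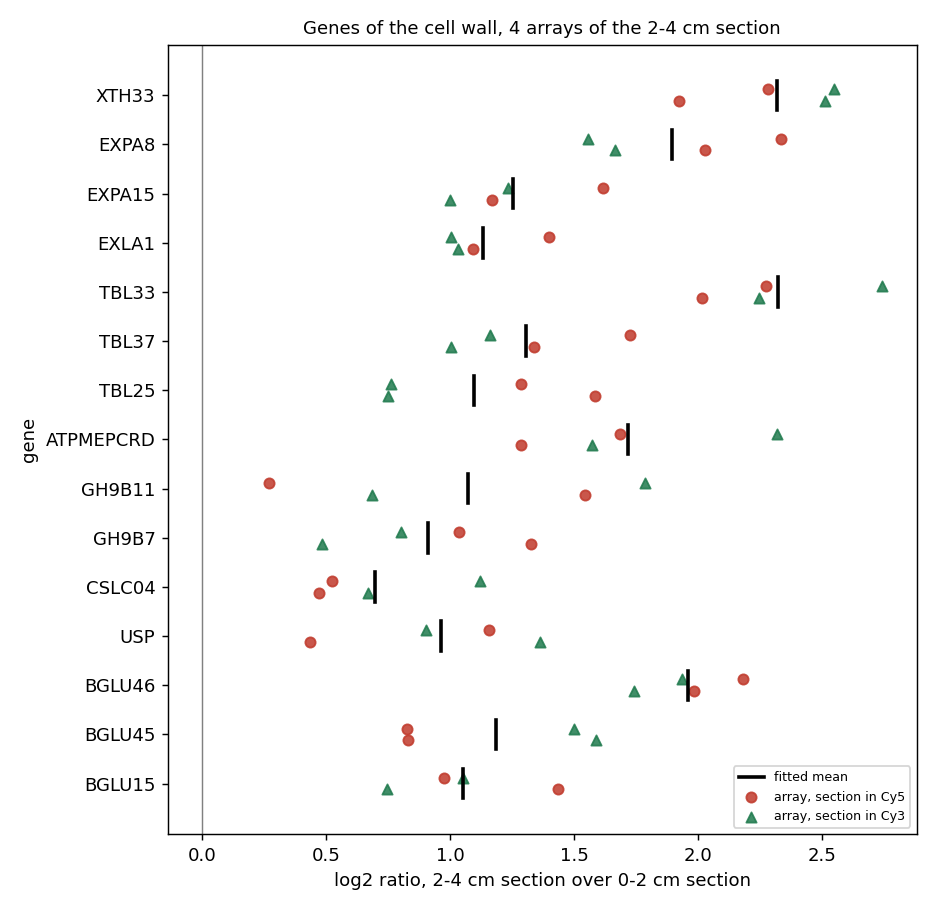
Log2 ratio of the 2-4 cm section over the 0-2 cm section (x axis) for 15 genes of the cell wall and of glucoside breakdown (y axis), with circles for the 2 arrays whose section carried Cy5, triangles for the 2 with Cy3 and a bar for the fitted mean. Only genes called higher are drawn, so TBL39 and GH9B6, called lower, and the members that did not pass are left out. Every point lies to the right of 0, from 0.27 for GH9B11 on array 1 to 2.74 for TBL33 on array 3.

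Beta-glucosidases release alcohols and hormones from their glucosides. Of 13 measured, 6 rose, 0 fell and 7 did not pass (median 0.42). That is 46.2% higher, against 6.63% of all named loci, in a list written after the values were seen. BGLU46, known to act on the glucosides of lignin monomers, read 2.18, 1.98, 1.94 and 1.74 (mean 1.96 ± 0.34, adjusted p = 0.000502), all within 0.5 of each other. Another probe of BGLU46 gave -0.38 ± 0.20 and did not pass (adjusted p = 0.25), so the gene's change rests on 1 of its 2 probes. BGLU45, its neighbour on chromosome 1 with the same known activity, read 0.82, 0.83, 1.5 and 1.59 (mean 1.19 ± 0.34, adjusted p = 0.0229). There the Cy3 arrays were the higher ones. These are close relatives, and whether they share signal on a spotted array was not tested. BGLU15 (1.05 ± 0.17), BGLU40 (0.64 ± 0.15), BGLU33 (0.54) and BGLU25 (0.44) completed the 6. The median of the list was 0.32 without array 3.

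Among 4 lignin and other phenylpropanoid enzymes found by the list search, 1 fell, 0 rose and 3 did not pass. CCR2, a cinnamoyl-CoA reductase, read -0.60, -0.04, -1.16 and -1.55 (mean -0.84 ± 0.17, adjusted p = 0.00267), below 0 on all 4 arrays but close to it on array 2. CCOAMT (0.08 ± 0.35), SHT (-0.08 ± 0.13) and FACT (0.14 ± 0.17) did not pass. Class III peroxidases oxidise wall phenolics, and 4 were found by name: PRXCA read -1.74, -0.98, -1.30 and -1.37 (mean -1.35 ± 0.34, adjusted p = 0.0107). It lay below -0.9 on each array, and it was called without only 1 of the 4 arrays. AT2G41480, AT5G64120 and AT5G66390 lay between 0.11 and 0.29 and did not pass.

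Vacuolar processing enzymes mature the proteins of the vacuole. GAMMA-VPE, the form of vegetative tissue, read 1.08, 0.97, 0.94 and 0.82 (mean 0.95 ± 0.24, adjusted p = 0.00943). ALPHA-VPE read 0.57, 0.30, 0.88 and 0.60 (mean 0.59 ± 0.13, adjusted p = 0.00534), and BETA-VPE 0.02, 0.21, 0.47 and 1.14 (mean 0.46 ± 0.14, adjusted p = 0.0277). These 3 rose and DELTA-VPE (-0.22 ± 0.19) did not pass. This list of 4 was written after the values were seen, and 6.63% of all named loci were called higher. The autophagy gene ATG8H was higher on all arrays, at 0.80, 0.46, 0.86 and 1.02 (mean 0.78 ± 0.15, adjusted p = 0.00113), while ATG8D, ATG8E and ATG3 lay between 0.34 and 0.40 and did not pass. Of 9 genes of leucine, valine and lysine breakdown 2 rose: AT4G33150, listed as LKR/SDH of lysine breakdown (1.29 ± 0.18, adjusted p = 4.59e-05), and IVD, isovaleryl-CoA dehydrogenase (0.71 ± 0.18, adjusted p = 0.00968). Glutathione S-transferases rose in 3 of 11 cases (median -0.05), led by GSTF3 at 0.68 ± 0.22, whose array 3 read -0.07. UDP-glucosyltransferases, a large family of sugar-attaching enzymes, had 1 of 32 higher and 0 lower.

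On the lower side, the genes of the ribosome, RNA polymerase and RNA processing that carry a symbol numbered 27. Of these, 10 fell, 0 rose and 17 did not pass (median -0.25), and 23 of the 27 estimates were below 0. That is 37% lower, against 6.53% of all named loci, in a list written after the values were seen. PRH75, a nucleolar RNA helicase, read -1.07, -0.79, -1.11 and -1.26 (mean -1.06 ± 0.16, adjusted p = 0.0001). IMP4, which helps to process the small-subunit ribosomal RNA, read -0.53, -0.52, -1.58 and -1.10 (mean -0.93 ± 0.22, adjusted p = 0.00772). PGY1, a protein of the large ribosomal subunit, read -0.39, -1.02, -1.28 and -1.20 (mean -0.97 ± 0.32, adjusted p = 0.0487). All arrays were below 0 for the 3 genes, though PGY1 lost its call whichever array was left out. Smaller falls came from ILA, a HEAT-repeat protein of translation (-0.78 ± 0.17), the polymerase subunit NRPB12 (-0.62 ± 0.18), the aminoacyl-tRNA synthetase SYNC3 (-0.59 ± 0.13), the tRNA-trimming enzyme TRZ3 (-0.56 ± 0.14) and the ribosomal RNA methylase DIM1A (-0.54 ± 0.14). Members that did not pass included EIF4A-2 (-0.02 ± 0.18), an initiation factor, and the exosome subunit RRP41 (0.04 ± 0.16).

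Nuclear genes that build plastids and mitochondria formed the largest group of this kind: 18 of 46 fell, 0 rose and 28 did not pass (median -0.34). That is 39.1% lower, against 6.53% of all named loci, and this list too was written after the values were seen. PDF1B, a peptide deformylase of organelle protein maturation, read -1.14, -0.81, -1.24 and -1.30 (mean -1.12 ± 0.17, adjusted p = 0.000113). ATNTT2, the ATP importer of plastids, read -1.43, -1.05, -1.08 and -0.09 (mean -0.91 ± 0.20, adjusted p = 0.00363), and HCF101, an iron-sulphur carrier for photosystem I, read -0.79, -0.46, -0.57 and -0.77 (mean -0.65 ± 0.14, adjusted p = 0.00452). None of these 12 values reached 0, with array 4 of ATNTT2 the nearest. Cpn60beta2, a plastid chaperonin subunit, read -1.84, -1.26, -2.07 and 0.95 (mean -1.05 ± 0.30, adjusted p = 0.0215), so array 4 went against the other three, and the call was kept without 1 of the 4 arrays. FTSZ2-1 of plastid division (-0.86), the deformylase PDF1A (-0.79), the mitochondrial DNA-binding protein OSB1 (-0.78), PAC of chloroplast RNA maturation (-0.78) and the pentatricopeptide-repeat proteins PPR596 (-0.69) and PPR336 (-0.66) also fell. Highest in the list were CPNIFS (0.42) and SECA2 (0.40, with another probe at -0.39), neither of which passed.

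The organelle list and the next one were divided by symbol with the values known, and the difference between them was not tested. Of 25 genes of photosynthesis and tetrapyrrole synthesis, 1 rose, 1 fell and 23 did not pass (median 0.03). LHCB4.2, an antenna protein of photosystem II, read 0.77, -0.14, 0.96 and 1.48 (mean 0.77 ± 0.19, adjusted p = 0.0106), with array 2 on the other side of 0. HEME1, an enzyme of the tetrapyrrole path, read -0.37, -0.38, -0.89 and -0.88 (mean -0.63 ± 0.21, adjusted p = 0.0463). RCA, rubisco activase and the leaf mesophyll marker, read -0.39, -0.16, 0.93 and 0.10 (mean 0.12 ± 0.23). Its arrays fell on either side of 0.

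**Figure D2:**
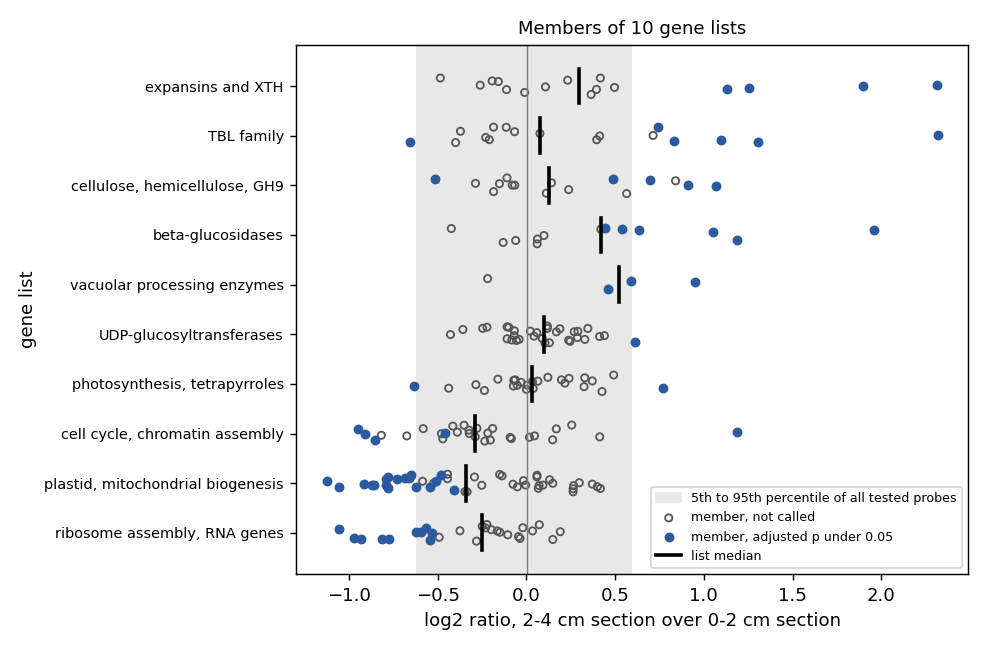
Log2 ratio of the 2-4 cm section over the 0-2 cm section (x axis) for each member of 10 gene lists (rows), filled where called, with a bar at the list median and a grey band from the 5th to the 95th percentile of all tested probes (-0.613 to 0.592). All filled points of the expansin and beta-glucosidase lists lie to the right of 0 and all those of the organelle biogenesis and ribosome lists to the left, while the TBL list has 5 to the right and 1 to the left.

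Cell cycle, replication and chromatin assembly genes had 4 of 29 lower, 1 higher and 24 not passing (median -0.29), with 22 of 29 estimates below 0. That is 13.8% lower and 3.45% higher, against 6.53% and 6.63% of all named loci. This list was written after the values were seen. An earlier list of cell division, spindle and replication genes had 1 of 5 lower, 0 higher and a median of 0.02. AUR2, the mitotic Aurora kinase, read -0.93, -0.65, -0.78 and -1.44 (mean -0.95 ± 0.18, adjusted p = 0.00144). The histone H2B gene HTB2 read -0.73, -0.37, -1.10 and -1.21 (mean -0.85 ± 0.17, adjusted p = 0.00191). UBC19, a ubiquitin-conjugating enzyme of the cell cycle, read -0.19, -1.77, -0.72 and -0.95 (mean -0.91 ± 0.20, adjusted p = 0.00382). The 12 values were all below 0 but ranged widely for UBC19. Histones did not all fall: of 5 core and linker histone genes, HTB2 was the 1 lower, 1 was higher (0.70) and 3 did not pass. TUBG1, gamma-tubulin, missed the threshold at -0.67 ± 0.23 (adjusted p = 0.0522), and TOPII, a topoisomerase, at -0.47 ± 0.30 (adjusted p = 0.353). ATMAP65-6, a microtubule-associated protein, rose instead, at 1.13, 1.06, 1.09 and 1.46 (mean 1.19 ± 0.16, adjusted p = 3.5e-05). TUB7 (-0.11 ± 0.38) and TUA1 (0.44 ± 0.29) did not pass: array 2 read -2.57 and -1.08 for them, and array 3 read 1.72 and 2.34.

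ARR15, a cytokinin-induced response regulator, was even across arrays, at -0.73, -0.92, -0.77 and -0.92 (mean -0.83 ± 0.13, adjusted p = 0.00023). The other 3 response regulators, RR16 (-0.20), RR19 (0.23) and RR22 (0.01), did not pass. Among 13 auxin genes, 2 rose and 1 fell. That is 15.4% higher and 7.69% lower, against 6.63% and 6.53% of all named loci. GH3.17, which couples auxin to amino acids, read 0.45, 0.38, 1.14 and 1.01 (mean 0.74 ± 0.15, adjusted p = 0.00234), while its other probe gave 0.04 ± 0.19. YUC11, an auxin synthesis enzyme, rose by 0.63 ± 0.19 (adjusted p = 0.0336), and the repressor IAA18 fell, with a mean of -0.58 ± 0.14 (adjusted p = 0.0104). Of 18 regulators of organs and vascular tissue, YAB2 (-0.59 ± 0.13, adjusted p = 0.00422), LHW (-0.57 ± 0.16, adjusted p = 0.0171) and BPEp (-0.54 ± 0.17, adjusted p = 0.0409) fell. YAB2 marks the outer side of lateral organs, LHW promotes vascular cell divisions and BPEp limits petal size. TCP15 rose (0.58 ± 0.14, adjusted p = 0.00833), but its other probe gave -0.14. Of these 18 regulators, 16.7% were thus lower and 5.56% higher. The lists of response regulators, auxin genes and organ and vascular regulators were written after the values were seen.

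Of 14 genes named for drought or cold, 2 were higher and 2 lower. That is 14.3% each way, against 6.63% higher and 6.53% lower of all named loci. LTI30, a dehydrin, read 1.74, 1.39, 1.16 and 1.06 (mean 1.33 ± 0.13, adjusted p = 1.01e-06). DI21, drought-induced, read -1.39, -1.46, -1.48 and -2.36 (mean -1.67 ± 0.19, adjusted p = 4.32e-06). LEA4-5, a late-embryogenesis protein, read -0.65, -2.17, -0.66 and -1.03 (mean -1.13 ± 0.19, adjusted p = 0.000335). Within each gene the 4 arrays stood on one side of 0. DI19 also passed (0.66 ± 0.21) with array 2 at -0.07 and another probe at -0.17. Enzymes of amino acid and nucleotide synthesis had 3 of 13 lower and 0 higher: OTC of arginine synthesis (-0.70 ± 0.13), PYRB of pyrimidine synthesis (-0.69 ± 0.15) and AT-HF of histidine synthesis (-0.69 ± 0.21). That is 23.1% lower, in a list written after the values were seen.

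Outside the lists, the largest fall of a gene with a symbol was that of ARPN, a plantacyanin, a small copper protein of the wall. It read -2.32, -1.41, -2.35 and -2.57 (mean -2.16 ± 0.29, adjusted p = 3.98e-05), 4.47-fold lower with array 2 the weakest. SOL1, a TSO1-like regulator, had a mean of -1.08 ± 0.19 (adjusted p = 0.000578). Higher were FMO, a flavin monooxygenase, at 2.21, 1.83, 2.25 and 1.75 (mean 2.01 ± 0.18, adjusted p = 3.64e-07), STZ, a stress-related zinc finger repressor (1.23 ± 0.27), IQD28, a calmodulin-binding protein (1.22 ± 0.13), SRX, a sulfiredoxin (1.18 ± 0.15), and GALT1, a glycan galactosyltransferase (1.05 ± 0.25). All 4 arrays were above 0 for each of these 5 genes. The receptor kinase FER, which senses the state of the wall, rose by 0.67 ± 0.20 (adjusted p = 0.0276), whereas THE1 (-0.06), ANX1 (0.54), PSY1R (0.59) and BRL1 (-0.25) did not pass.

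Many of the largest changes belonged to loci that the gene table names by locus tag alone, for which no role is given here. The highest was AT3G03960, at 2.41, 3.12, 3.63 and 3.22 (mean 3.097 ± 0.15, adjusted p = 2.45e-11), with all arrays above 2.4. AT1G03740 (2.56), AT2G37750 (2.54), AT1G72220 (2.39) and AT2G31930 (2.37) came next and were less even, as AT1G72220 ran from 0.81 on array 1 to 4.52 on array 4. AT1G80170 was tighter, at 2.75, 1.73, 2.25 and 2.53 (mean 2.31 ± 0.15, adjusted p = 2.84e-09). The lowest after ARPN were AT1G66090 (-1.98 ± 0.23) and AT4G34290 (-1.72 ± 0.21), each below -1.3 on all 4 arrays.

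**Figure D3:**
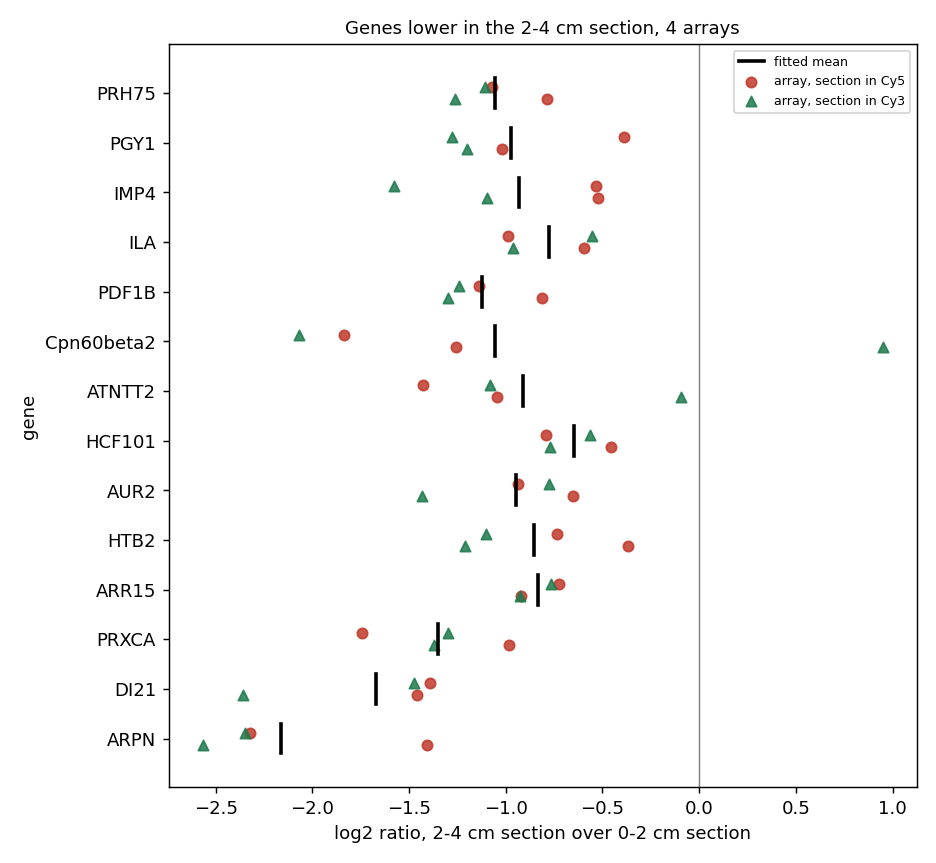
Log2 ratio of the 2-4 cm section over the 0-2 cm section (x axis) for 14 lower genes (y axis), with circles for arrays whose section carried Cy5, triangles for Cy3 and a bar for the fitted mean. The only point above 0 is array 4 of Cpn60beta2 at 0.95, while the 4 points of ARR15 lie within -0.92 to -0.73.

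Few defining markers of the tissues that a section could hold matched a named probe, and none of those listed for the shoot meristem or the epidermis did. As 17582 tested probes are unnamed here, this does not show that the array lacks them. GUT2, a xylan synthesis gene of xylem and fibres, read -0.23, -0.07, 0.32 and -0.78 (mean -0.19 ± 0.23), and OPS, a phloem regulator, 0.32, -0.14, -0.20 and -0.32 (mean -0.08 ± 0.19, with another probe at -0.45 ± 0.17). SPL of the anther (-0.11 ± 0.17) and AMS of the tapetum (-0.05 ± 0.14) also did not pass. Every one of these markers, RCA included, had arrays on either side of 0. The part of tissue shares in the differences above was not tested.

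The 2-4 cm section was also set against the 0-3 and 3-5 cm sections of taller stems. All 3 were measured over the same tip reference, so their ratios share its error, and the tests below are of the difference between sections. At an adjusted p under 0.05, 67 probes (0.26%) differed between 2-4 cm and 0-3 cm, 37 of them (0.144%) higher and 30 (0.117%) lower at 2-4 cm, and 13 had a named locus. Against 3-5 cm of 10 cm stems, 2893 probes (11.2%) differed, 1402 (5.45%) higher and 1491 (5.8%) lower at 2-4 cm. One source name of the 3-5 cm group gives a stem of 5 cm in place of 10 cm. Across probes, the 4 arrays of the 0-3 cm section correlated with each other at r from -0.211 to 0.551. With each array centred and scaled, the counts were 476 and 1227. The number of calls in the first contrast ran from 24 to 476 with the processing, as set out in the closing part.

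Among the genes with a symbol, FMO and EXPA15 had the largest differences between the 2-4 cm and 0-3 cm sections. FMO was at 2.01 ± 0.18 at 2-4 cm and -0.02 ± 0.18 at 0-3 cm, a difference of 2.03 (adjusted p = 0.000547), and at 3-5 cm it was again 2.08. EXPA15 was at 1.25 ± 0.17 at 2-4 cm, -0.18 ± 0.17 at 0-3 cm and 0.06 ± 0.17 at 3-5 cm. Its level at 2-4 cm was thus above both others, by 1.43 (adjusted p = 0.0076) and 1.19 (adjusted p = 0.00252). MGL, methionine gamma-lyase, was lower by contrast: -0.37 ± 0.12 at 2-4 cm against 0.96 ± 0.12 at 0-3 cm, a difference of -1.34 (adjusted p = 0.000662). ECS1 was at 0.32 ± 0.15 against -0.81 ± 0.15 at 0-3 cm (adjusted p = 0.024). Against the tip, neither MGL (adjusted p = 0.0514) nor ECS1 (adjusted p = 0.191) was called at 2-4 cm. At 0-3 cm, MGL was above the tip (adjusted p = 6.77e-05). AT3G21770, with no role in the gene table, was at -1.04 ± 0.16 against 0.48 ± 0.16 (adjusted p = 0.00339).

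Of 7871 loci taken at 1 probe each, 843 differed between 2-4 cm and 3-5 cm, and 550 of them were not called against the tip at 2-4 cm. Among the rest, 133 were higher than the tip at 2-4 cm and higher still at 3-5 cm, and 126 were lower than the tip and lower still at 3-5 cm. The counts in the other directions were 25 and 9. Values at 3-5 cm spread more widely, with array SDs of 0.768 to 0.858 against 0.493 to 0.574 at 2-4 cm. The part of this spread in these counts was not tested. GSTF3 stood at 0.68 ± 0.22 at 2-4 cm and 4.71 at 3-5 cm, a difference of -4.03 (adjusted p = 4.2e-07). GAMMA-VPE went from 0.95 to 3.27 (difference -2.32, adjusted p = 0.000152), BGLU46 from 1.96 to 4.57 (difference -2.60, adjusted p = 0.00121) and ATPMEPCRD from 1.72 to 3.73 (difference -2.01, adjusted p = 0.000321). These 4 were above the tip at 2-4 cm, but less so than at 3-5 cm of the taller stems. For BGLU46 the 0-3 cm section read 2.585, and its other probe gave -0.38 at 2-4 cm.

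PDF1B moved from -1.12 at 2-4 cm to -1.94 at 3-5 cm (difference 0.82, adjusted p = 0.0272) and HTB2 from -0.85 to -2.03 (difference 1.17, adjusted p = 0.00324). AUR2 went from -0.95 to -1.86 (difference 0.91, adjusted p = 0.0257), and PRH75 from -1.06 to -1.77 (difference 0.71, adjusted p = 0.0388). OPS, at -0.08 at 2-4 cm, was at -1.84 at 3-5 cm (difference 1.75, adjusted p = 0.000294). At 3-5 cm all 5 lay further below the tip.

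Of the 16 expansin and XTH genes, 3 were higher at 2-4 cm than at 3-5 cm and 1 was lower. The higher ones were EXPA15, EXPB1 (difference 0.96, adjusted p = 0.00628) and EXPA7 (difference 0.70, adjusted p = 0.0276), the last 2 not called against the tip at 2-4 cm. EXGT-A3, an endotransglucosylase, was the lower one, at 0.42 at 2-4 cm and 1.29 at 3-5 cm (difference -0.88, adjusted p = 0.0219). XTH33 was at 2.31 at 2-4 cm and 2.07 at 3-5 cm (difference 0.24 ± 0.24, adjusted p = 0.603). EXPA8 was at 1.90 and 2.08 (difference -0.19 ± 0.32, adjusted p = 0.783), and EXLA1 at 1.13 and 0.81 (difference 0.32, adjusted p = 0.276). CSLC04 was at 0.70 and 0.10 (difference 0.59 ± 0.28, adjusted p = 0.19). The differences of XTH33, EXPA8, EXLA1 and CSLC04 did not pass, which does not show that the levels were equal. BGLU40 and GH3.17 were above the tip at 2-4 cm, at 0.64 and 0.74, and at -0.47 and -0.32 at 3-5 cm, with differences of 1.11 (adjusted p = 0.00171) and 1.06 (adjusted p = 0.00275).

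**Figure D4:**
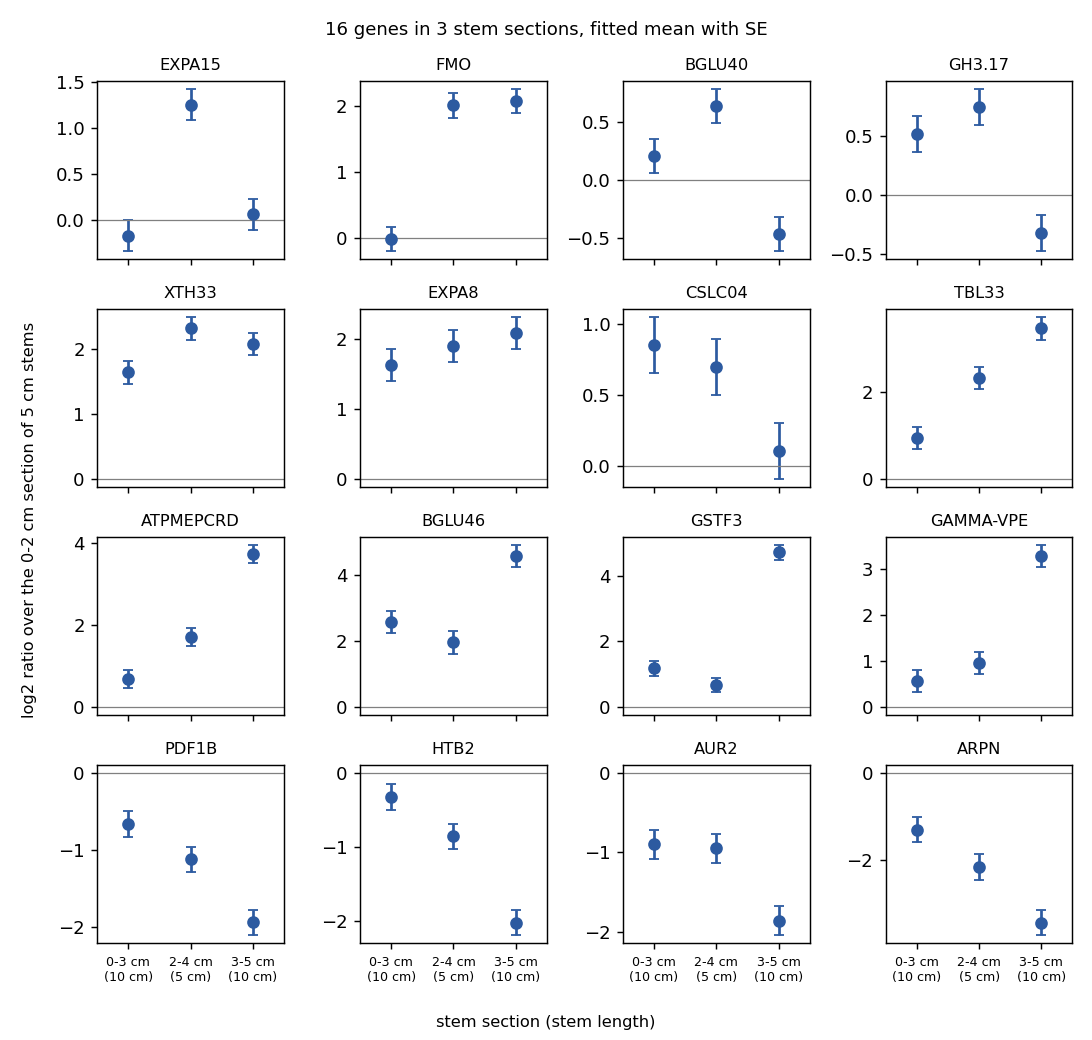
Fitted mean log2 ratio over the 0-2 cm section of 5 cm stems with SE (y axis, scaled for each gene) for 16 genes in the 0-3 cm, 2-4 cm and 3-5 cm sections (x axis, stem length in brackets), 4 arrays each. EXPA15 is high at 2-4 cm alone, at 1.25, XTH33 and EXPA8 are high in all 3 sections, and GSTF3 climbs from 0.68 at 2-4 cm to 4.71 at 3-5 cm.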

How the data were processed

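RNA of stem sections was hybridised in 2 colours to spotted arrays of 28800 spots. The deposited values, 1 column per array, are log ratios of section over the 0-2 cm reference, whose base is not stated and was taken as log2. Per the labels, arrays were scanned with a ScanArray Express scanner; how background and normalization were handled is not given in the labels or files used here. No spot intensities entered, so signal over background is unknown, and the number of arrays limits the precision.

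The 25720 probes with at least 3 values in each of the 5 groups were fitted with limma 3.58.1 in R 4.3.3: a mean per group and a dye term over all 20 arrays (14 residual degrees of freedom), eBayes, and Benjamini-Hochberg adjustment over all probes, called at an adjusted p under 0.05. The dye term was itself called for 4172 probes. On simulated data the fit recovered 90% of 2-fold changes and 12% of 1.4-fold changes. The simulated noise was independent and had no dye effect, and far fewer probes were changed than the 3478 called here. These shares therefore do not measure the power of the real comparison. In other groups, the dye labels of 3 arrays were inconsistent (the dye in the source name was used), and 1 source name gave another stem length than the rest of its group (the title was followed).

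The platform annotation gave 1 gene for 8138 tested probes, from 7871 loci. Names came from the TAIR10.1 RefSeq table, and 17582 tested probes were unnamed here. A locus with more than 1 probe was taken at the one with fewest missing arrays, then the lowest ID.

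Members and lists were chosen with earlier results of these data known, and many lists were written by symbol after the values were seen. They covered ribosome and RNA genes, organelle biogenesis, photosynthesis, the cell cycle, vacuolar processing enzymes, beta-glucosidases, carboxypeptidases and auxin genes. Others were cytokinin response regulators, organ and vascular regulators, amino acid and nucleotide synthesis, nucleotide sugar supply, autophagy and ATP-citrate lyase. The rest were leucine, valine and lysine breakdown, cysteine-rich peptides, tetraspanins, receptor kinases and UDP-glucosyltransferases. Named genes were the 15 highest and 15 lowest named protein-coding probes called with 1 sign on all 4 arrays, up to 4 called members per direction of each list, every member of lists of 6 or fewer, and the markers. MGL, ECS1, FMO, ATPMEPCRD, STZ, IQD28, SRX, GALT1, SOL1, ILA, NRPB12, AT3G21770 and further list members were picked after their values were seen. Equal replicate numbers did not pair arrays across groups.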

Additional observations from a re-analysis of the deposited data

Results flagged for a closer look

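In 4 of 159 named genes, 1 of the 4 arrays lay far from the other three, by Dixon's test, which flags about 1 in 20 groups by chance. RTE1 read -0.50 on array 3, against -0.01 to 0.05 on the others. TOPII read -1.24 on array 1, against -0.26 to -0.16. THE1 read 0.53 on array 3, against -0.31 to -0.22. DI21 read -2.36 on array 4, against -1.48 to -1.39, and is the 1 gene of the 4 that was called.

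The tested difference between the 2-4 cm section and the 0-3 cm section of taller stems passed for 5 of the 159 named genes. It was 2.03 for FMO, 1.43 for EXPA15, 1.13 for ECS1, 1.04 for AT1G80170 and -1.34 for MGL, on the log2 scale. AT3G21770, given above but not among the 159, also passed, at -1.52.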

How the results depend on the processing

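No alternative turned the direction of any of the 113 named genes that were called, and 79 of them stayed called under all 13 alternatives other than leaving out an array, 68 also without each array. The count of 3478 changed probes was 6200 with arrays centred and scaled, 5273 with array weights and 2169 when replicates 1 and 2, and 3 and 4, formed random blocks. It ran from 1994 to 2739 with 1 array of the 2-4 cm section left out: 1994 without replicate 1, 2142 without replicate 3 and 2067 without replicate 4. The 67 differences from the 0-3 cm section became 36 without the dye term, 476 with scaling, 237 with array weights, 43 with the replicate number as a block, and 24, 231 and 153 with the 3 pairings of random blocks, and 31, 81, 35 and 34 without replicates 1 to 4. The 2893 differences from the 3-5 cm section became 1227 with scaling, 4543 with array weights, 1751 when replicates 1 and 2 shared a random block, 4632 when 1 and 3 did, and 2141 to 2288 with 1 array left out. With scaling, list medians moved to -0.333 (ribosome and RNA genes), -0.451 (organelle biogenesis), -0.383 (cell cycle) and 0.551 (beta-glucosidases). With only probes measured on all 20 arrays, that of the vacuolar processing enzymes was 0.769. Without 1 array, medians ran from -0.379 to -0.302 for organelle biogenesis, from -0.0127 to 0.337 for the TBL family and from 0.317 to 0.467 for beta-glucosidases and from 0.0412 to 0.182 for cellulose, hemicellulose and endoglucanase genes. The causes were not tested. The replicate block gave 3302 changed probes, and 2 named genes lost their call in it.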

Other observations

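The lists in this part were written after the values were seen. Over all named loci, 6.63% were called higher and 6.53% lower. Defensin-like and other cysteine-rich peptides had 3 of 11 members higher and 1 lower (27.3% and 9.09%). PDF1.5 was at 0.79 ± 0.21 and PDF1.2b at 0.65 ± 0.20, while LCR69 was at -1.11 ± 0.23. Of 8 tetraspanins, membrane proteins that organise protein complexes, TET8 rose (1.02 ± 0.15, adjusted p = 0.000115) and TET6 fell, with a mean of -0.61 ± 0.14 (adjusted p = 0.00502). Of 18 serine carboxypeptidase-like genes, scpl38 (1.15 ± 0.21) and SCPL45 (0.57 ± 0.13) rose, 11.1% of the list. Array 2 read -2.31 for ACLB-1 and -1.83 for ACLA-2, genes of ATP-citrate lyase, where the other three arrays read 0.42 to 1.06 and 0.32 to 0.94. Of the 4 genes of this enzyme, ACLA-1 was called higher (0.76 ± 0.18, adjusted p = 0.00627), with array 2 at 0.75, and 3 did not pass.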
